A study of Homo sapiens with 10 samples.

Results

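The genes described here make cholesterol and fatty acids: a list of 33 genes matched by symbol, all 33 of them found among the 25275 symbols of both expression tables. They were chosen for their known function, but with earlier results of these data known. They were followed in 6 RNA-seq libraries of 2 established human lines, OCI-LY10 and TMD8. Both lines are diffuse large B-cell lymphoma of the activated B-cell (ABC) type. Cells carried an inducible shRNA, a short hairpin RNA that lowers its target's mRNA, and in every library it was switched on with doxycycline at 20 ng/ml for 2 days. In OCI-LY10 the libraries were 1 with STAT3 shRNA 16, 1 with STAT3 shRNA 10 and 1 with a control shRNA. The 3 TMD8 libraries carry the same 3 shRNAs according to the labels, but the columns of that table bear no name, so they are given by position and in no comparison of shRNA with control. The other 4 samples of the series are STAT3 ChIP-seq and are not analysed here.

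Cells build cholesterol from acetyl-CoA through mevalonate, farnesyl pyrophosphate, squalene and lanosterol, and they build fatty acids from the same acetyl-CoA through malonyl-CoA. Both routes are switched on by the SREBP transcription factors, which SCAP escorts from the endoplasmic reticulum to the Golgi for cleavage when sterol is scarce and which INSIG proteins hold back when sterol is plentiful. In B cells these routes supply membrane lipid for growth, and STAT3 is a transcription factor downstream of cytokine receptors and JAK kinases.

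Values are FPKM, the fragments of a gene for each kilobase of its length, scaled to the size of the library. For the test in OCI-LY10, limma compared log2(FPKM + 1) between the 2 STAT3 shRNA libraries and the 1 control library over the 11162 genes whose mean reached 1 FPKM, and a gene is said to be called, or to have risen or fallen, at a Benjamini-Hochberg adjusted p below 0.05. Fold changes on this scale understate the change of genes at low FPKM and depend on the pseudocount: with 5 FPKM in place of 1, the log2 change of FADS2 was 2.86 in place of 4.70, of ABCG1 1.32 in place of 2.48, of ELOVL6 0.92 in place of 1.45 and of LPIN1 −0.53 in place of −0.87, all still called. No shRNA has a second library, so the only spread seen for a gene is that between the libraries of 2 different STAT3 shRNAs. For the p-values limma draws that spread towards the trend over all genes (prior degrees of freedom 1.64, against 1 residual). The control is assumed to vary as the STAT3 shRNA libraries do. STAT3 itself stood at 10.6 FPKM with shRNA 16 and 11.1 under shRNA 10, against 16.5 in the control library, a log2 change of −0.56 (SE 0.10, limma adjusted p = 0.0465). The adjusted p was above the threshold with a 0.1 FPKM pseudocount (0.0508) and with no filter (0.0688). In the TMD8 columns, in their order, STAT3 stood at 120.3, 24.3 and 22.5 FPKM.

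The control library of OCI-LY10 was more like the TMD8 columns than like the STAT3 shRNA libraries of its own line. Over the 33 genes, Pearson's r of log2(FPKM + 1) was 0.996 between the STAT3 shRNA libraries, 0.844 and 0.871 between them and the control library, 0.948 to 0.968 between the control library and the TMD8 columns, and 0.777 to 0.816 between the STAT3 shRNA libraries and TMD8. Over all genes outside small RNA genes the same ranges were 0.994, 0.845, 0.936 to 0.961 and 0.797 to 0.815. These are descriptions across genes, which are not replicates. The STAT3 shRNA and the control libraries therefore differ in far more than STAT3, and whether the labelled shRNA or another difference between the libraries goes with a given value cannot be told apart. Whether the control library was exchanged or mislabelled was not tested, and every value given here as STAT3 shRNA against control, or as OCI-LY10 against TMD8, rests on its label. Small RNA genes took 58.3% and 57.9% of all FPKM with shRNA 16 and shRNA 10, against 49.2% in the control library, and 22.5%, 28.7% and 43.3% in the TMD8 columns in their order; the part of this difference in the results was not tested. All 8 B-cell markers examined, among them CD79A and PAX5, were at 1 FPKM or more in all 6 libraries. All 16 T and NK cell, myeloid and erythroid markers were below 1 FPKM in all 6. Of 4 epithelial markers, EPCAM was at 4.39 FPKM with either STAT3 shRNA and listed at 0 in the control library, and CDH1 was listed at 0 with shRNA 16, was at 0.0102 with shRNA 10, and reached 32.6 FPKM in the control library and 15.8 to 17.2 in TMD8. Of 5 stromal and endothelial markers, PECAM1 was at 6.05 and 5.43 FPKM with the STAT3 shRNAs against 0.109 in the control library, and COL1A1 was listed at 0 and at 0.00823 against 3.60. The part of these markers in the results was not tested.

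Promoter windows from RefSeq (build GRCh38.p14, 300 bases spanning each start site, read along the gene's own strand) were found for 29 of the 33 genes, 41 windows in all, and none for FDFT1, SQLE, FASN and ABCG1. They were searched on both strands for the core of the sterol regulatory element to which SREBP binds (TCACNCCA), for the CCAAT box (CCAAT) of its partner NF-Y, for an E-box (CACGTG) and for a STAT motif (TTCNNNGAA). The CCAAT box was in 56.1% of the genes' windows, against 34.6% of all 35116 windows in the table. The sterol element core was in 7.32% against 3.95%, the E-box in 9.76% against 7.26% and the STAT motif in 2.44% against 7.66%. The core was found in the windows of MVK, MSMO1 and SREBF2. The STAT motif was found only in a window of ACSS2. A match is a run of letters and not a binding site shown by any measurement here. LSS had the largest change of the called genes of sterol synthesis among the 33. The windows printed here are those of the 3 genes with the core, of LSS and of ACSS2, with all motif matches in capitals. They lie at chr12:109573544-109573843 on the plus strand (MVK), chr4:165327419-165327718 on the plus strand (MSMO1), chr22:41832855-41833154 on the plus strand (SREBF2), chr21:46228725-46229024 on the minus strand (LSS) and chr20:34876362-34876661 on the plus strand (ACSS2).
MVK: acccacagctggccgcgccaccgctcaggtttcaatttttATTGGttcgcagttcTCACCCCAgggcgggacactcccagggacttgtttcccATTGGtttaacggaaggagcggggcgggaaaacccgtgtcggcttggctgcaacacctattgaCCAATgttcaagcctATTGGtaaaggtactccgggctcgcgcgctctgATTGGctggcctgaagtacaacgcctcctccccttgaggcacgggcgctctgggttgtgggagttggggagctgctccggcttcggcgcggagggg
MSMO1: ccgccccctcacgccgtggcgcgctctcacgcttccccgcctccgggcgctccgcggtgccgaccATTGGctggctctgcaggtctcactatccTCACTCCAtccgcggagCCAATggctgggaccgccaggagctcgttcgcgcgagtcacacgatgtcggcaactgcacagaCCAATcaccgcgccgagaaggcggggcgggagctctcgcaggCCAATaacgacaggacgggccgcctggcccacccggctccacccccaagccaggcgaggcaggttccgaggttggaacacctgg
SREBF2: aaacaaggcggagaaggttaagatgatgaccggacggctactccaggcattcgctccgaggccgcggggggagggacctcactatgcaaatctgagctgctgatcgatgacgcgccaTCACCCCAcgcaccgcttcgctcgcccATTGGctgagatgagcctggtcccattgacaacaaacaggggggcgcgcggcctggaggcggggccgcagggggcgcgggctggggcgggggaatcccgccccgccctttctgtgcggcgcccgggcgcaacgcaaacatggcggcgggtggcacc
LSS: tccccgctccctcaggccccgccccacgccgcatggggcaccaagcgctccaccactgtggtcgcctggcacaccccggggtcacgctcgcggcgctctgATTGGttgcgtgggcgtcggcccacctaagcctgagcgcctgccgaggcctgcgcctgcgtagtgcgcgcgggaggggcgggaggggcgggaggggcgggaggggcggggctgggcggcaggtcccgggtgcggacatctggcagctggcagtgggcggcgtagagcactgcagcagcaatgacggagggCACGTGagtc
ACSS2: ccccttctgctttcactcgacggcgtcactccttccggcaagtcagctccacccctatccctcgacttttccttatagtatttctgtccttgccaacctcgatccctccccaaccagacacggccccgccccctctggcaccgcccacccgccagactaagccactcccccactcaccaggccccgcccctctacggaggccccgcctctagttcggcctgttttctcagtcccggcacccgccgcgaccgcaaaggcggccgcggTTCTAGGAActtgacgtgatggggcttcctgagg

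Of the 33 genes, 32 passed the filter on low values and were tested in OCI-LY10: 9 rose with the STAT3 shRNAs, 3 fell and 20 were not called. Those that rose were MVK, LSS, SREBF1, SREBF2, ACACA, FASN, ELOVL6, FADS2 and ABCG1, and those that fell were HMGCS1, FDFT1 and LPIN1. Over all tested genes 20.3% rose and 17.4% fell, beside 28.1% and 9.38% of the 32. The median log2 change was 0.02 over the 32 genes and 0.06 over all genes tested, with 16 above 0 and 16 below. FADS2 and ABCG1 passed the filter through the STAT3 shRNA libraries, where they were high, and ABCA1 did not pass it. Without FADS2 and ABCG1, 7 of 30 genes rose (23.3%). The 20.3% over all genes still includes genes that passed the filter in that way, so these shares are not of like sets. Changes by at least 1.5-fold with each STAT3 shRNA, counted with no test, were seen upward in 7 genes (21.9%, against 20.1% of all genes) and downward in 1, LPIN1 (3.12%, against 17.2%); with shRNA 16 left out the downward count was 3. In bulk RNA, a different number of expressing cells and a different amount of RNA per cell cannot be told apart. The counts of calls depended on the settings: with median-of-ratios scaling 7 of the 32 rose and 7 fell (21.9% each), beside 18.1% and 18.5% of all genes, so the lower share of falling genes was not seen with that scaling. Without the filter, 6 of 33 rose (18.2%) and 0 fell, beside 7.18% and 11.6% of all genes.

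**Figure D1:**
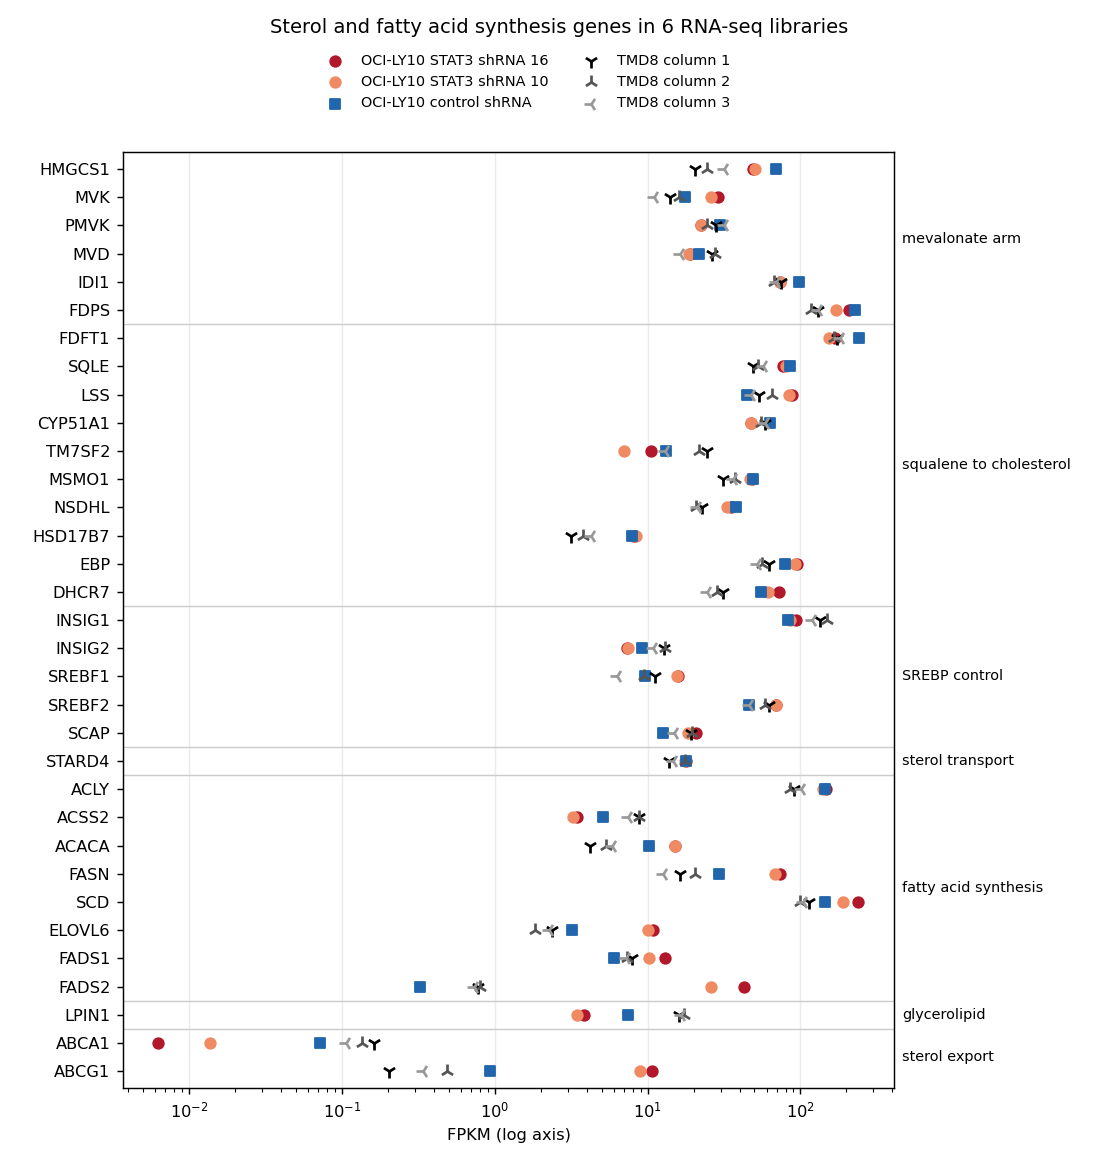
FPKM of each of the 33 genes (log axis) in the 3 OCI-LY10 libraries (circles and squares) and the 3 TMD8 columns (Y-shaped marks), with genes grouped by role; each point is 1 library. The STAT3 shRNA points of FADS2, at 42.9 and 26.1 FPKM, and of ABCG1, at 10.6 and 8.94, lie apart from the other 4 libraries, while most sterol genes span a narrow range.

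The genes of both SREBP factors rose together, and SCAP, INSIG1 and INSIG2, the genes of their escort and retention factors, were not called. SREBF1, which encodes SREBP-1, the form tied most closely to fatty acid synthesis, stood at 15.7 FPKM with shRNA 16 and 15.6 under shRNA 10, against 9.65 in the control library. Its log2 change was 0.64 (SE 0.10, limma adjusted p = 0.0337). SREBF2, which encodes the cholesterol-directed SREBP-2, stood at 69.6 FPKM with either STAT3 shRNA, against 46.4 in the control library, a log2 change of 0.58 (SE 0.08, adjusted p = 0.0326). For both genes the 2 STAT3 shRNA libraries were almost equal and both lay above the control. SREBF1 and SREBF2 were called under all 8 alternative settings with a test, at adjusted p of 0.0191 to 0.0496 and 0.0166 to 0.0455.

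SCAP, the sterol-sensing escort of both factors, stood at 20.9 and 18.3 FPKM with shRNA 16 and shRNA 10, against 12.6 in the control library. It was not called (log2 change 0.59, SE 0.13, limma adjusted p = 0.0643). With small RNA genes left out of the test it was called (limma adjusted p = 0.0349). Their rows were dropped there without rescaling, so the log2 change was the same. INSIG1, the retention factor that SREBP itself induces, stood at 93.8 and 85.4 FPKM against 83.3 and was not called (adjusted p = 0.503). INSIG2, its constitutive relative, stood at 7.34 and 7.42 FPKM against 9.24 and was not called either (log2 change −0.29, SE 0.10, adjusted p = 0.126). The ranges of INSIG1 and INSIG2 differ in side: the STAT3 shRNA libraries lay above the control library for INSIG1 and below it for INSIG2.

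The mevalonate arm, which runs from acetyl-CoA units to farnesyl pyrophosphate, had small differences, mostly below 0. Of its 6 genes 1 rose, 1 fell and 4 were not called, and 5 of 6 had a log2 change below 0 (median −0.34, and −0.40 and −0.36 with median-of-ratios scaling and quantile normalization). HMGCS1, the synthase that makes HMG-CoA, fell to 48.7 and 50.4 FPKM with shRNA 16 and shRNA 10, against 69.4 in the control library (log2 change −0.48, SE 0.09, adjusted p = 0.0464). MVK, mevalonate kinase, was the exception in direction, at 28.8 and 26.1 FPKM against 17.6 (log2 change 0.61, SE 0.11, adjusted p = 0.0483). Both calls lay close to the threshold. HMGCS1 lost its call without the mean-variance trend (adjusted p = 0.0518) and without the filter (0.0610), and MVK with a pseudocount of 0.1 FPKM (0.0506), without the filter (0.0869), with median-of-ratios scaling (0.0562) and with quantile normalization (0.0614).

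The other genes of the arm were not called. PMVK, phosphomevalonate kinase, stood at 22.3 FPKM with either STAT3 shRNA against 29.9 in the control library (adjusted p = 0.0607). MVD, the decarboxylase, stood at 18.8 and 18.7 FPKM against 21.5 (adjusted p = 0.206). IDI1, the isomerase of isopentenyl pyrophosphate, stood at 73.3 and 73.5 FPKM against 97.5 (adjusted p = 0.0550), and FDPS, farnesyl pyrophosphate synthase, at 206.8 and 170.2 against 227 (adjusted p = 0.293). For PMVK and IDI1 the STAT3 shRNA libraries were almost equal and the call turned on the settings. PMVK was called lower with median-of-ratios scaling (limma adjusted p = 0.0498), with quantile normalization (0.0478) and with small RNA genes left out (0.0454). IDI1 was called lower under the same settings (limma adjusted p = 0.0449, 0.0461 and 0.0372). FDPS has processed copies in the genome, so its value is uncertain, though the copy FDPSP2 was at 0.256 FPKM or less in every library.

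From squalene to cholesterol, 1 of 10 genes rose, 1 fell and 8 were not called, with a median log2 change of −0.08. FDFT1, squalene synthase and the first committed step towards sterol, fell to 167.7 and 153.6 FPKM with shRNA 16 and shRNA 10, against 243 in the control library (log2 change −0.59, SE 0.11, adjusted p = 0.0456), a call lost without the filter (adjusted p = 0.0830). LSS, lanosterol synthase, which closes the sterol rings after squalene epoxidation, rose to 88.0 and 84.7 FPKM against 44.4 in the control library. Its log2 change was 0.94 (SE 0.09, adjusted p = 0.0194), and it was called under all 8 alternative settings with a test (adjusted p 0.00607 to 0.0398). SQLE, the squalene epoxidase that acts between FDFT1 and LSS, stood at 77.4 and 79.9 FPKM against 85.8 (adjusted p = 0.338).

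Among the 7 later enzymes of that route, CYP51A1, lanosterol demethylase, stood at 47.3 and 47.4 FPKM against 63.4 and was not called (limma adjusted p = 0.0545). It was called lower with median-of-ratios scaling (0.0448), with quantile normalization (0.0433) and with small RNA genes left out (0.0374). TM7SF2, a sterol reductase, stood at 10.5 and 7.01 FPKM against 13.2, with a wide gap between the STAT3 shRNAs (adjusted p = 0.227). MSMO1, the methyl sterol monooxygenase, stood at 48.4 and 47.0 FPKM against 48.7, and NSDHL, which acts with it in removing the methyl groups, at 35.1 and 32.8 against 38.1. EBP, the sterol isomerase, stood at 95.4 and 91.9 FPKM against 79.0, and DHCR7, the last reductase before cholesterol, at 72.9 and 61.1 against 55.3. HSD17B7, the 3-keto sterol reductase, stood at 8.14 and 8.38 FPKM against 7.95, a value that is uncertain because its near copy HSD17B7P2 is also in the table, at 3.18 and 2.79 FPKM against 1.03. None of these 7 was called as analysed here. STARD4, a soluble carrier of cholesterol between membranes, stood at 17.7 and 17.5 FPKM against 17.7.

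In fatty acid synthesis, 4 of 8 genes rose, 0 fell and 4 were not called by limma. Of those not called, ACSS2 was lower and FADS1 higher at an unadjusted limma p below 0.05. The median log2 change was 0.69, or 0.63 and 0.67 with median-of-ratios scaling and quantile normalization. Over all genes 20.3% rose and 17.4% fell. Of the 4 that rose, 1, FADS2, had passed the filter only through the STAT3 shRNA libraries. FASN, the fatty acid synthase that makes palmitate, rose to 74.0 and 67.9 FPKM with shRNA 16 and shRNA 10, against 29.3 in the control library (log2 change 1.24, SE 0.11, adjusted p = 0.0174). ELOVL6, which lengthens palmitate to stearate, rose to 10.8 and 10.1 FPKM against 3.19 (log2 change 1.45, SE 0.11, adjusted p = 0.0156). ACACA, the acetyl-CoA carboxylase that supplies malonyl-CoA, rose to 15.2 and 15.0 FPKM against 10.2 (log2 change 0.52, SE 0.10, adjusted p = 0.0465), a call lost with either scaling and without the filter (adjusted p 0.0528 to 0.0603). FASN and ELOVL6 were called under all 8 alternative settings with a test.

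Of the 32 tested genes FADS2 had the largest difference. It encodes the delta-6 desaturase that starts the conversion of linoleic and alpha-linolenic acid to long polyunsaturated fatty acids. FADS2 stood at 42.9 FPKM with shRNA 16 and 26.1 under shRNA 10, against 0.325 in the control library, a ratio of means of 106. The log2(FPKM + 1) change was 4.70 (SE 0.38, limma adjusted p = 0.0167), and with no filter the adjusted p was 0.0539. Its neighbour FADS1, the delta-5 desaturase that acts later in the same conversion and is transcribed away from FADS2, stood at 13.0 and 10.2 FPKM against 6.005, and was not called (log2 change 0.84, SE 0.20, adjusted p = 0.0677). With small RNA genes left out of the test FADS1 was called higher (limma adjusted p = 0.0315). The annotated spans of FADS1 and FADS2 overlap. Use of strand is not given in the sources used here, so reads in the overlap cannot be told apart. FADS2 was higher than FADS1 per length in both STAT3 shRNA libraries and lower than it in the control library and in all 3 TMD8 columns.

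The other fatty acid genes were not called. SCD, the delta-9 desaturase that makes oleate, stood at 237 and 190.8 FPKM against 145 in the control library (log2 change 0.55, SE 0.19, adjusted p = 0.121). ACLY, which cleaves citrate to give cytosolic acetyl-CoA, stood at 146.7 and 139.9 FPKM against 144 (adjusted p = 0.937). ACSS2, which makes acetyl-CoA from acetate, stood at 3.43 and 3.27 FPKM against 5.07 (log2 change −0.48, SE 0.10, limma adjusted p = 0.0569). It was called lower with median-of-ratios scaling (0.0477), with a pseudocount of 5 FPKM (0.0472) and with small RNA genes left out (0.0433). The STAT3 shRNA libraries of SCD both lay above the control, those of ACSS2 both below it, and those of ACLY on either side of it.

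LPIN1, a phosphatidate phosphatase that directs lipid into triglyceride and phospholipid synthesis, fell to 3.84 and 3.46 FPKM with shRNA 16 and shRNA 10, against 7.47 in the control library (log2 change −0.87, SE 0.12, adjusted p = 0.0299). The call was lost without the filter (adjusted p = 0.0674). The sterol exporters, both known targets of the oxysterol receptors LXR, differed from each other. ABCG1 rose to 10.6 and 8.94 FPKM against 0.930 in the control library (log2 change 2.48, SE 0.16, adjusted p = 0.0128), and was called under all 8 alternative settings with a test (adjusted p 0.00219 to 0.0427). ABCA1 was at 0.00626 and 0.0137 FPKM against 0.0720 and was not tested.

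**Figure D2:**
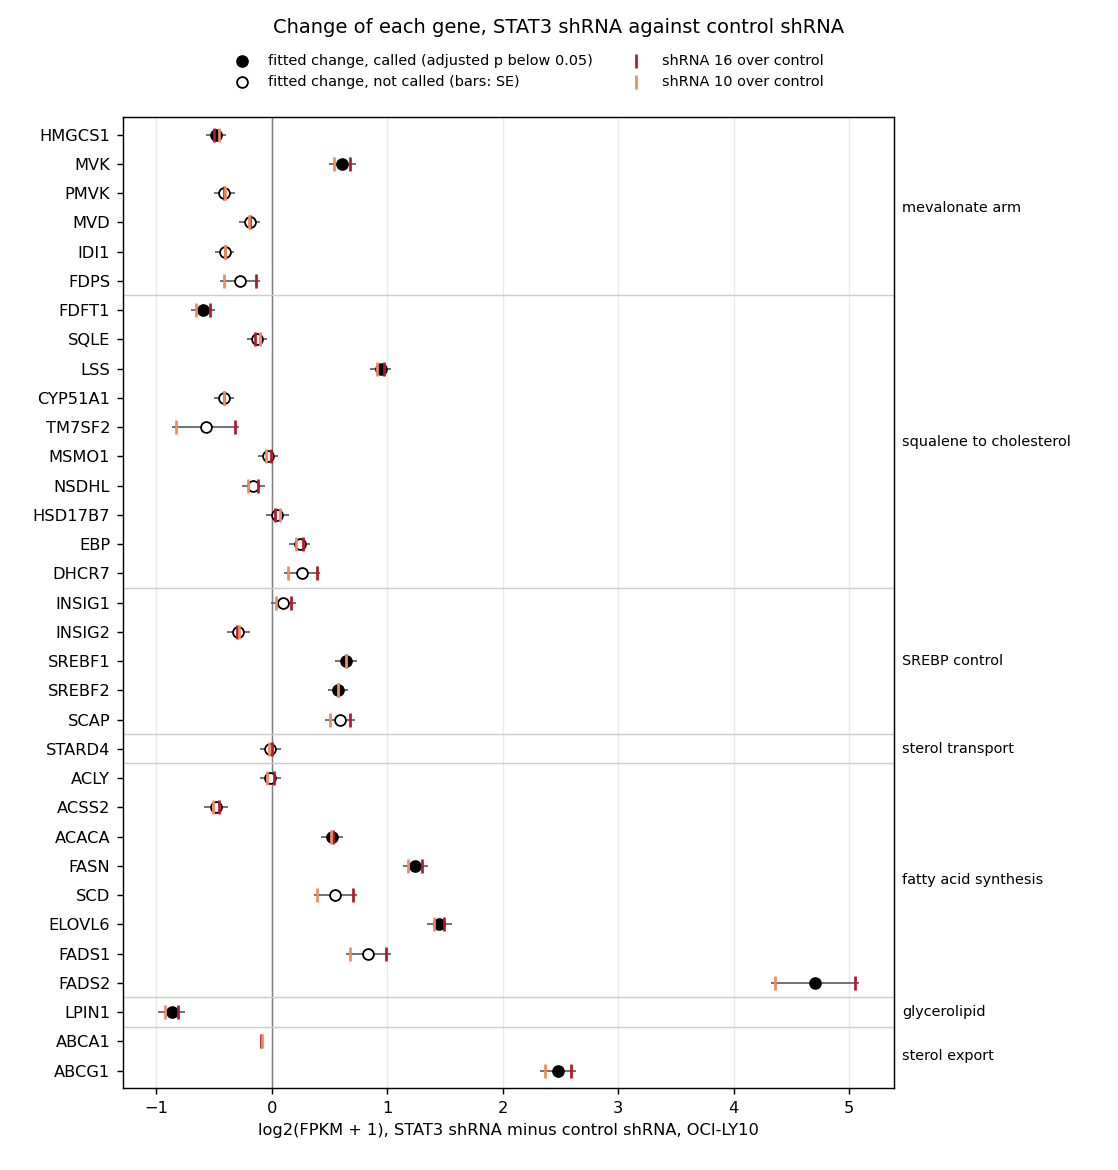
Difference in log2(FPKM + 1), STAT3 shRNA minus control shRNA in OCI-LY10, for each gene; circles are fitted changes with their SE (filled where called), and ticks are the single shRNAs over the control. FADS2 (4.70), ABCG1 (2.48), ELOVL6 (1.45) and FASN (1.24) lie farthest right, and LPIN1 (−0.87) farthest left.

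Between the STAT3 shRNAs, each with 1 library, the genes differed little. At least 1.5-fold, 1 of 32 genes (3.12%, against 2.55% of all genes) was higher with shRNA 16 than with shRNA 10, namely FADS2, at 1.64 times on the FPKM scale. At that threshold 0 of 32 were lower with shRNA 16, against 1.07% of all genes. TM7SF2, at 10.5 FPKM with shRNA 16 and 7.01 with shRNA 10, and FADS1, at 13.0 and 10.2, had ratios of 1.49 and 1.27. No test was possible between single libraries.

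In TMD8 the same genes were measured in 3 unnamed columns, given here in their order, with no mean and no test. FASN stood at 16.2, 20.5 and 12.7 FPKM, ELOVL6 at 2.37, 1.82 and 2.25, and ACACA at 4.21, 5.35 and 5.84. FADS2 stood at 0.777, 0.80 and 0.730 FPKM and ABCG1 at 0.203, 0.488 and 0.341, levels below 1 FPKM as in the OCI-LY10 control library. LPIN1 stood at 16.0, 17.3 and 16.5 FPKM, above all 3 OCI-LY10 libraries. ABCA1 was at 0.162, 0.136 and 0.107 FPKM.

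Of the 30 genes whose TMD8 mean reached 1 FPKM, 5 differed at least 1.5-fold between the highest and the lowest column (16.7%, against 11.5% of all 10888 genes past that filter): HMGCS1, MVD, TM7SF2, SREBF1 and FASN. HMGCS1 stood at 20.5, 24.4 and 31.5 FPKM, highest in the third column. MVD, at 26.4, 27.6 and 16.3, TM7SF2, at 24.4, 21.7 and 12.9, SREBF1, at 11.1, 9.53 and 6.34, and FASN were all lowest in the third column. With the third column left out, 0 of the 30 differed by that much, and with column 1 left out 3 did. The third column was the lowest of the 3 for 14 of the 30 genes and the highest for 8, where over all genes it was lowest for 35.5% and highest for 44.8%.

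In TMD8 the third column was the lowest for SREBF1, SREBF2, SCAP, INSIG1 and INSIG2. That column also had the largest share of FPKM in small RNA genes, and the part of that share in these values was not tested. SREBF2 stood at 62.6, 58.2 and 45.8 FPKM, SCAP at 19.4, 19.4 and 14.8, INSIG1 at 135, 149 and 119, and INSIG2 at 12.8, 12.9 and 10.8. INSIG1 was thus above all 3 OCI-LY10 libraries in all 3 columns. The genes that varied least included CYP51A1, at 58.8, 54.8 and 58.4 FPKM, LPIN1 and FDFT1, at 174, 166 and 181. Which column holds which shRNA is not known, so these differences are not read as an effect of STAT3.

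**Figure D3:**
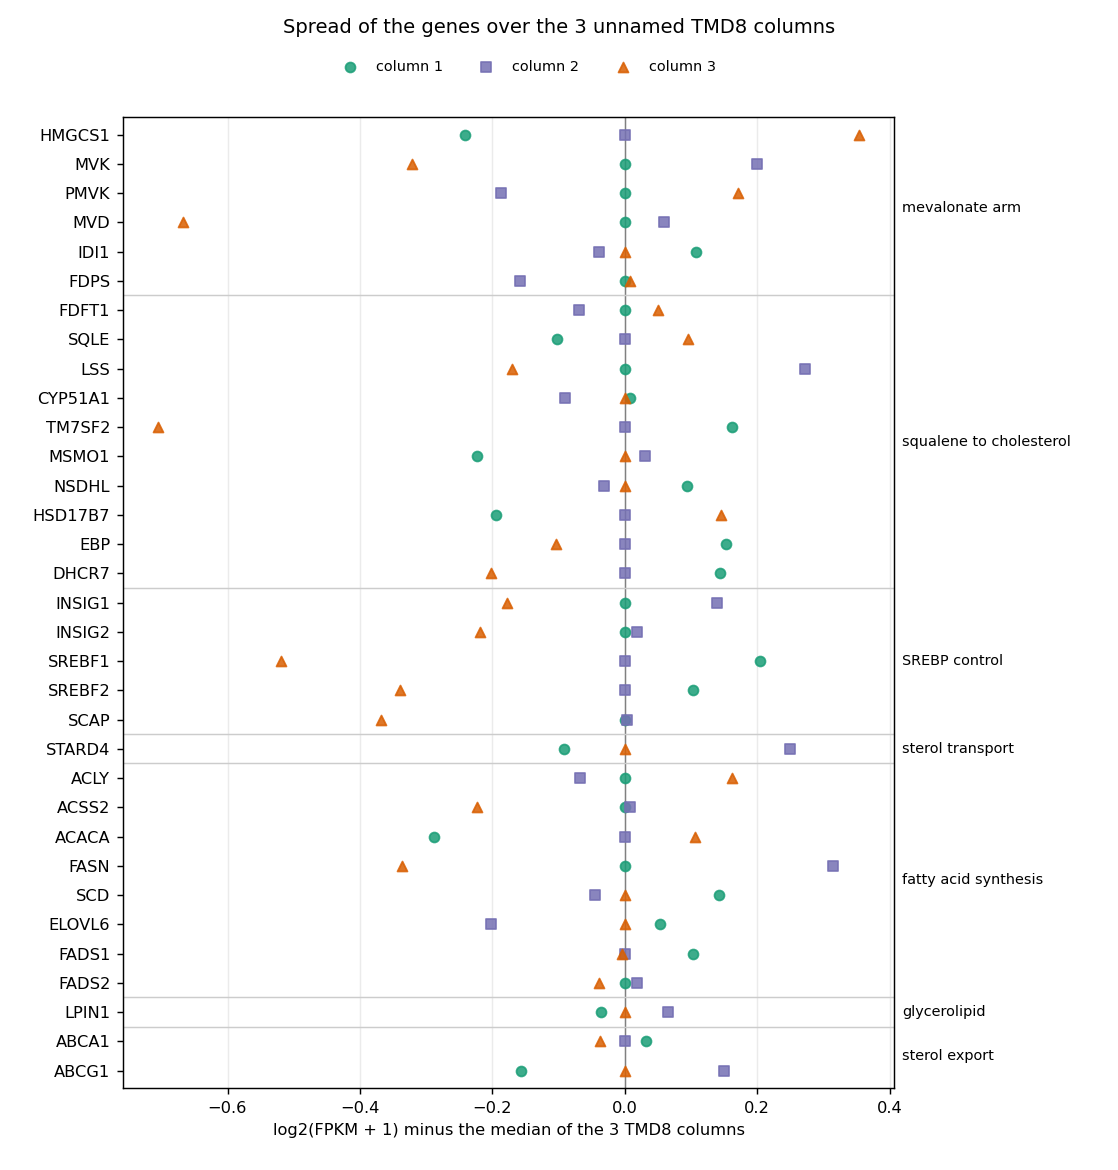
Each gene's log2(FPKM + 1) in the 3 TMD8 columns, minus the median of those columns; 1 point is 1 library and the columns have no name. The third column (triangles) is the lowest for all 5 SREBP control genes, for MVD and for TM7SF2, and the highest for HMGCS1.

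Setting both lines side by side, 15 of 32 genes (46.9%) were higher in all 3 OCI-LY10 libraries than in all 3 TMD8 columns, against 20.9% of all 11340 genes whose mean over the 6 libraries reached 1 FPKM. Only 4 (12.5%) were lower in all 3, against 26.9%. The tables were scaled separately and no test was made between them, but with median-of-ratios scaling over all 6 libraries the counts were 16 and 4. With the control library left out, both STAT3 shRNA libraries lay above all TMD8 columns for 20 genes (62.5%, against 37.9% of all genes) and below them for 7 (21.9%, against 41%). The 15 were HMGCS1, MVK and FDPS of the mevalonate arm, SQLE, MSMO1, NSDHL, HSD17B7, EBP and DHCR7 of the sterol steps, ACLY, ACACA, FASN, SCD and ELOVL6 of fatty acid synthesis, and ABCG1. The 4 were INSIG1, INSIG2, ACSS2 and LPIN1. For SQLE, for example, the OCI-LY10 libraries had 77.4, 79.9 and 85.8 FPKM and the TMD8 columns 49.2, 52.8 and 56.5. For MSMO1 they had 48.4, 47.0 and 48.7, against 31.0, 37.2 and 36.4. For SQLE and MSMO1 the OCI-LY10 control library lay beside the STAT3 shRNA libraries and apart from TMD8. For MVK, also among the 15, the control library at 17.6 FPKM lay nearer to the TMD8 median.

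For the genes that were called, the control library more often lay nearer to TMD8. It was closer to the TMD8 median than to the STAT3 shRNA mean on the log2(FPKM + 1) scale for 9 of the 12 called genes (75%) and for 5 of the 20 not called (25%). Over all genes these shares were 90.2% of those called and 42.3% of those not called. A gene is called only where the control library is far from the STAT3 shRNA libraries, so the higher share among called genes is in part fixed by the choice. In a count chosen after the values were seen, both STAT3 shRNA libraries lay above the other 4 libraries for 14 of 32 genes (43.8%, against 32.1% of all genes) and below them for 6 (18.8%, against 33.1%). All 9 genes that rose were among the 14, including FADS2 and ABCG1, which passed the filter only through the STAT3 shRNA libraries. A gene that rose already lies above the control library, so this too is in part fixed by the choice. The same share over all called genes is not given here. Of the 3 that fell, LPIN1 was among the 6, while HMGCS1 and FDFT1 were not, with TMD8 at 20.5, 24.4 and 31.5 FPKM for HMGCS1 and at 174, 166 and 181 for FDFT1.

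**Figure D4:**
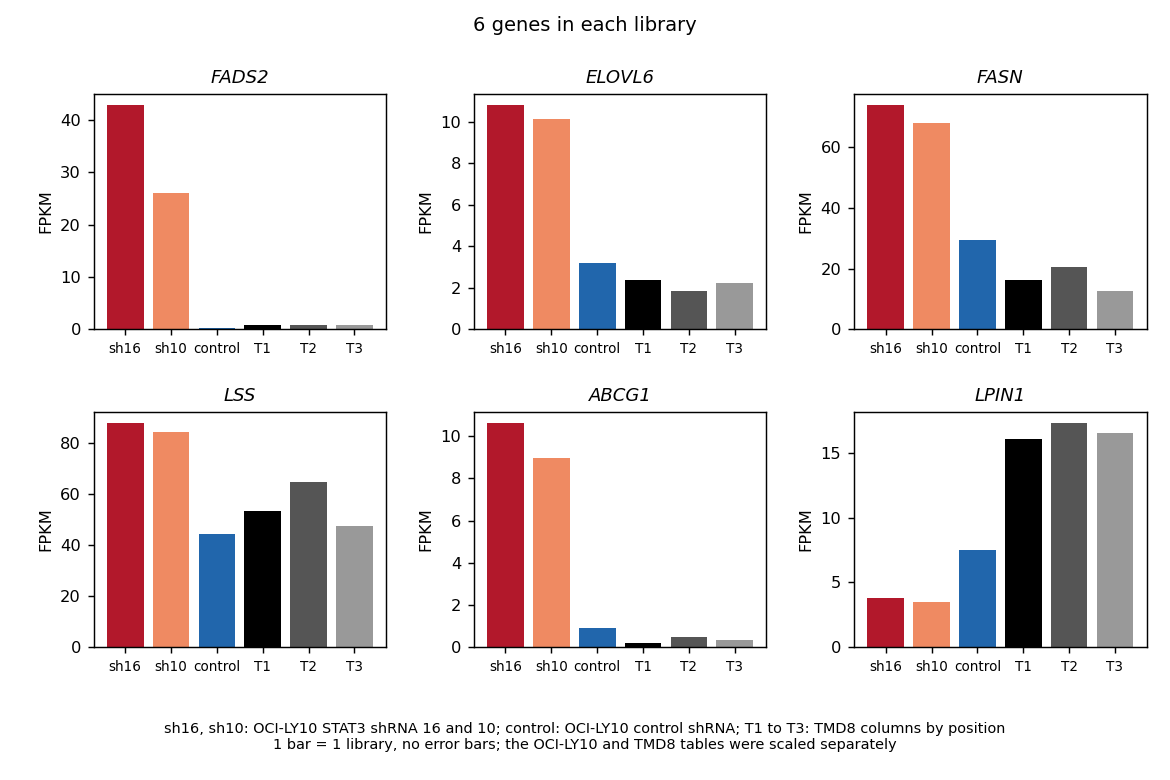
FPKM of 6 genes in each library, with bars from 0 and 1 bar for each library; sh16, sh10 and control are OCI-LY10, and T1 to T3 are the TMD8 columns by position. FADS2, ELOVL6, FASN, LSS and ABCG1 are highest in both STAT3 shRNA libraries, and LPIN1, at 3.84 and 3.46 FPKM there, is lowest in them.

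Related lipid genes outside the 33 were read from 6 lists, beside a background of 20.3% of all tested genes rising and 17.4% falling. The lists were chosen with earlier results of these data known. Of 14 tested genes of the remaining sterol steps and SREBP control, 3 rose, 2 fell and 9 were not called (median log2 change 0.37, against 0.06 over all genes). MBTPS1, the site-1 protease that makes the first cut in SREBP, rose to 41.0 and 41.5 FPKM with shRNA 16 and shRNA 10, against 7.96 in the control library (log2 change 2.24, adjusted p = 0.00838). In TMD8, MBTPS1 stood at 7.15, 7.55 and 7.79 FPKM, close to its level in the OCI-LY10 control library.

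Of 13 tested genes of the isoprenoid branches, 2 rose, 2 fell and 9 were not called (median 0.14). The background for this and the next 2 lists is the same 20.3% rising and 17.4% falling. GGPS1, which makes geranylgeranyl pyrophosphate, rose to 7.32 and 7.11 FPKM against 3.99, and DHDDS, of dolichol synthesis, to 14.6 and 14.9 against 5.77. In TMD8, GGPS1 stood at 7.08, 7.15 and 6.81 FPKM, near its STAT3 shRNA levels, and DHDDS at 4.74, 4.31 and 5.40, near its control level. COQ2, of ubiquinone synthesis, fell to 2.02 and 2.82 FPKM against 16.0, and was at 16.5, 18.5 and 16.0 in TMD8. Of 17 tested genes of sterol uptake, transport and storage, 2 rose, 2 fell and 13 were not called (median −0.05). LPCAT3, an acyltransferase of phospholipid remodelling, rose to 29.8 and 31.4 FPKM against 12.5, SCARB1, a lipoprotein receptor, fell to 13.5 and 12.3 against 31.9, and STARD3NL, a late endosomal tether, fell to 11.3 and 9.94 against 21.7. Of 19 tested genes of fatty acid elongation, desaturation and activation, 1 rose, 1 fell and 17 were not called (median −0.07). HACD2, listed under its older symbol PTPLB, a dehydratase of elongation, rose to 16.7 and 17.0 FPKM against 11.5, and ACSL3, an acyl-CoA synthetase, fell to 23.2 and 23.9 against 38.6. All adjusted p-values of the genes named here were between 0.0163 and 0.0482.

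**Figure D5:**
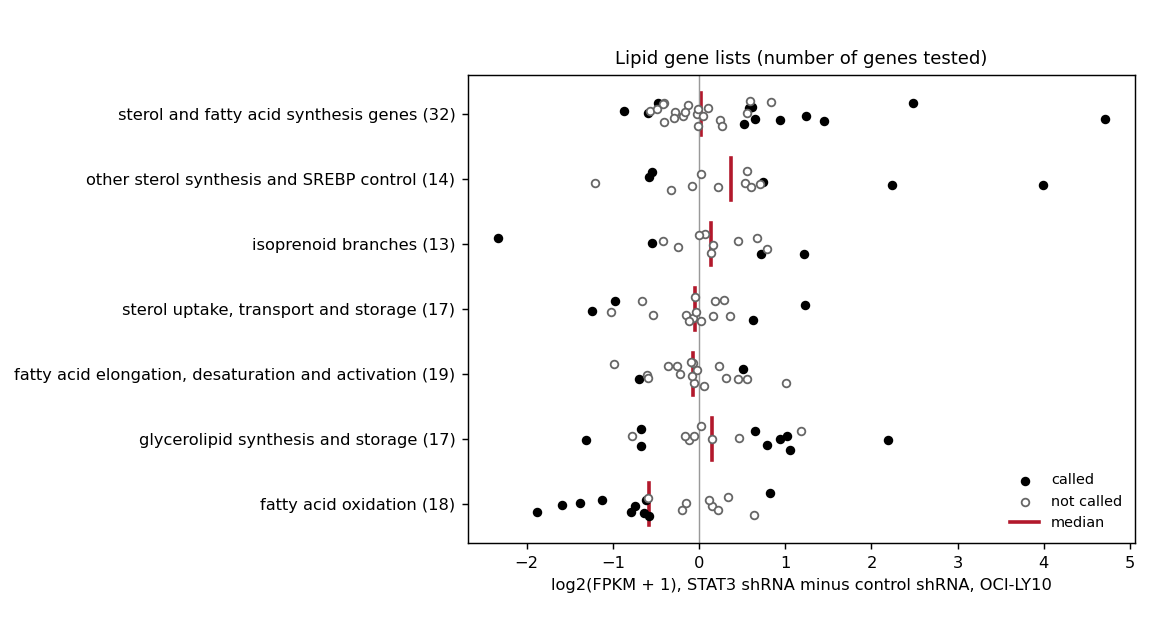
Log2(FPKM + 1) change, STAT3 shRNA minus control shRNA in OCI-LY10, of each tested gene of 7 lipid gene lists; 1 point is 1 gene (filled where called), and red bars are list medians. Fatty acid oxidation has the lowest median (−0.59), and the 33 genes described here a median of 0.02 with FADS2 as the far point.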

How the data were processed

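Gene expression was measured by RNA-seq; library kits were TruSeq RNA, per the labels' protocols. The authors deposited FPKM values, 1 per gene and library, in 1 table per cell line. TopHat, Bowtie2 and build hg19 are named, with no role, per the submitters' processing notes. Of the FPKM tool, annotation and strand setting, each is not given in the sources used here. Sample names head the OCI-LY10 columns. The TMD8 table has no header, and the labels name it for 3 samples, so its columns are used by position. Of the 25277 rows, those of 2 repeated symbols were summed. FPKM gives no total count, so absolute depth is unknown. From the commonest ratio of values under 0.1 FPKM, depth relative to shRNA 10 was 0.731 for shRNA 16 and 1.52 for the control library. In TMD8 the commonest ratio held for 74 and 29 values only, so depth there is poorly determined.

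Testing used limma 3.58.1 (R 4.3.3), two-sided, with empirical Bayes moderation and a mean-variance trend, on log2(FPKM + 1). It covered all genes of mean FPKM at least 1, with Benjamini-Hochberg adjustment and 1 residual degree of freedom. The test was first tried on simulated data in which every gene had the same spread. That trial cannot show how it behaves on these libraries, where the spread differs between genes. Related lists were described by counts and medians. Genes named were every member, STAT3 and up to 3 genes of each related list, those with the lowest adjusted p, of which some are not reported here. The members and lists were chosen with earlier results of these data known, and the count of genes with both STAT3 shRNA libraries apart from the other 4 after the values were seen. Promoter sequences are RefSeq's (GRCh38.p14), and no other coordinates of that build were used with the hg19 values. Alternatives were other pseudocounts, filters and scalings, small RNA genes left out, no variance trend and each STAT3 shRNA left out.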

Additional observations from a re-analysis of the deposited data

How the results depend on the processing

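Of the 32 tested genes and STAT3, 0 changed sign with a call under any alternative. LSS, SREBF1, SREBF2, FASN, ELOVL6 and ABCG1 were called under all 8 alternatives with a test. Over these alternatives the genes that rose numbered from 6 of 33 without the filter (18.2%, against 7.18% of all genes) to 11 of 32. The 11 (34.4%, against 26.4% of all genes) were with small RNA genes left out. Leaving out small RNA genes dropped their rows without rescaling FPKM, so log2 changes stayed as analysed and only the variance estimate and adjustment moved. The count of genes that fell was 3 as analysed (9.38%, against 17.4% of all genes). It was 7 with median-of-ratios scaling (21.9%, against 18.5%) and 6 with quantile normalization (18.8%, against 17.7%). With small RNA genes left out it was 7 (21.9%, against 21.4%). Without the filter it was 0, against 11.6% of all genes (limma adjusted p = 0.0610 for HMGCS1, 0.0830 for FDFT1 and 0.0674 for LPIN1). Without the filter, 1299 of all genes rose against 2263 as analysed, and with a filter at a mean of 5 FPKM 1178 fell against 1943; 18098 and 8032 genes were tested there, against 11162. At 2-fold in place of 1.5-fold, 4 genes were higher and 0 lower with both STAT3 shRNAs, 0 differed between the shRNAs and 0 between TMD8 columns. Shares over all genes are not given for the counts at 2-fold. The 1 gene at least 1.5-fold lower with both shRNAs became 0 with a pseudocount of 5 FPKM and 2 with median-of-ratios scaling. With either STAT3 shRNA left out, which gives a value with no test, 7 to 10 genes were at least 1.5-fold higher and 1 to 3 lower. With 1 TMD8 column left out, 0 to 4 genes differed 1.5-fold. The cause of these shifts was not tested. No paired analysis was possible because there was 1 control library and 1 library of each STAT3 shRNA. With the OCI-LY10 control library left out, 7 genes in place of 4 were lower than all TMD8 columns. Chosen after seeing the data were this alternative, those for fold counts with both STAT3 shRNAs, leaving out TMD8 columns, and the rescaling of the count apart from the other 4 libraries. Absolute depth is unknown, so no limit set by depth can be given.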

Other observations

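Fatty acid oxidation, the route opposite to synthesis, was examined as a list of 18 genes, all of them tested. The list was chosen with earlier results of these data known. With the STAT3 shRNAs 9 fell, 1 rose and 8 were not called (limma), a median log2 change of −0.59 against 0.06 over all genes tested, of which 17.4% fell and 20.3% rose. ECI2, an enoyl-CoA isomerase, stood at 14.6 and 12.6 FPKM with shRNA 16 and shRNA 10, against 52.7 in the control library (log2 change −1.88, SE 0.14, adjusted p = 0.0152). ETFDH, which passes electrons from oxidation to the respiratory chain, stood at 5.53 and 6.23 FPKM against 16.9 (log2 change −1.39, SE 0.13, adjusted p = 0.0188). CPT2, of carnitine-dependent import, stood at 6.62 and 6.11 FPKM against 15.1 (log2 change −1.13, SE 0.11, adjusted p = 0.0208). In TMD8 the same genes stood at 51.1, 44.5 and 59.6 FPKM (ECI2), 15.9, 14.3 and 18.1 (ETFDH) and 15.4, 14.6 and 11.5 (CPT2), and the control library of OCI-LY10 lay within the TMD8 range for each.

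Of 17 tested genes of glycerolipid synthesis and storage, 6 rose, 3 fell and 8 were not called (median 0.15), beside 20.3% rising and 17.4% falling over all genes. PTDSS1, which makes phosphatidylserine, stood at 129 and 134 FPKM with shRNA 16 and shRNA 10, against 62.9 in the control library (log2 change 1.05, SE 0.09, adjusted p = 0.0173). PEMT, of phosphatidylcholine synthesis, stood at 10.97 and 10.03 FPKM against 4.68 (log2 change 1.02, SE 0.12, adjusted p = 0.0248). MGLL, monoglyceride lipase, stood at 1.58 and 1.62 FPKM against 5.44 (log2 change −1.31, SE 0.09, limma adjusted p = 0.0142). The TMD8 columns stood at 78.9, 74.8 and 78.2 FPKM (PTDSS1), 12.6, 14.1 and 10.3 (PEMT) and 5.36, 4.20 and 4.48 (MGLL). For PEMT these lay nearer to the STAT3 shRNA libraries than to the control library.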
